A study of Mus musculus with 34 samples.

Results

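The effect of 1 targeted Hdac4 allele on the cortical transcriptome was measured over both genetic backgrounds of a cross, in 17 mice that carried the allele against 17 that did not, with the R6/2 transgene as a covariate. These were all 34 arrays of the series, 1 per mouse, and each gave log2 levels for 45037 probe sets. The 8 carriers named Hdac4HET had 1 targeted and 1 normal Hdac4 allele, and the 9 named Dble::R6/2 had the same allele together with the R6/2 transgene. The 8 WT and 9 R6/2 mice were the non-carriers, with 2 normal Hdac4 alleles. The R6/2 transgene is a fragment of human HTT holding exon 1 with an expanded CAG repeat and models Huntington's disease. Mice were 15 weeks old, of a CBA X C57Bl/6 background, and labelled male or female. The null allele was first made in 129S mice and was bred onto that background afterwards, so the allele and any 129S DNA still linked to it cannot be told apart. In all, 84 probe sets were called for the allele and also moved the same way on each background, at an unadjusted limma p under 0.05. The backgrounds were Hdac4HET against WT and Dble::R6/2 against R6/2, each read on its own arrays. The pooled call drew on these same arrays, so the 2 readings are no independent check of it.

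HDAC4 is a class IIa histone deacetylase. It has little enzyme activity of its own, recruits HDAC3 with the NCoR and SMRT corepressors, and represses the targets of MEF2 transcription factors. Calcium-dependent and SIK kinases phosphorylate it, which holds it in the cytoplasm, and it is abundant in neurons.

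Several arrays stood apart or went against a label. Xist, which is transcribed from the inactive X chromosome and marks female tissue, disagreed with the labelled sex in 15 of 34 arrays (9 carriers and 6 non-carriers). By the labels 8 carriers and 9 non-carriers were female, whereas Xist was above a log2 level of 8 in 5 carriers and 9 non-carriers. Prolactin transcript (Prl), a pituitary product, was above 8 in 4 arrays, WT replicates 2, 6 and 7 and Hdac4HET replicate 1. R6/2 replicate 2 carried epidermal transcripts, with a mean over 14 epidermal markers of 5.91 against at most 4.77 in any WT array. Markers of cortical tissue were high in every array: the glutamatergic genes Slc17a7, Tbr1, Cux2 and Neurod6 lay at or above the 81st percentile of all probe sets, as did Gad1 and Mbp, and Gfap ranged from 6.07 to 8.04. Array medians lay between 5.44 and 5.52.

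The bases before the start of the targeted gene, of the gene with the largest rise, and of the neighbours that rose and fell most are shown because their levels carry most of what follows. They are the 250 bases before the transcript start in RefSeq (build GRCm38.p6), written 5′ to 3′, with every CpG in capitals. Hdac4 lies at chr1:92180342-92180591 on the minus strand, Prm1 at chr16:10796824-10797073 on the minus strand, Pam at chr1:98095647-98095896 on the minus strand and Gin1 at chr1:97769922-97770171 on the plus strand.
Hdac4: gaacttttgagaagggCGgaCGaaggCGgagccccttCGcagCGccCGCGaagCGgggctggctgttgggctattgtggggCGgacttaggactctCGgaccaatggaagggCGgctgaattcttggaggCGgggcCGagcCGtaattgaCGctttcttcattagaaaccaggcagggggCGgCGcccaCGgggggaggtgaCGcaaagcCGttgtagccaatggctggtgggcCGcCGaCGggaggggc
Prm1: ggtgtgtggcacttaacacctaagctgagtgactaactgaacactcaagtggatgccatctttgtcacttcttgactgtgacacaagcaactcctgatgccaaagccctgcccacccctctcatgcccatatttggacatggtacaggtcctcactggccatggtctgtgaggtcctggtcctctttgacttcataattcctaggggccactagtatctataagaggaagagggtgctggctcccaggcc
Pam: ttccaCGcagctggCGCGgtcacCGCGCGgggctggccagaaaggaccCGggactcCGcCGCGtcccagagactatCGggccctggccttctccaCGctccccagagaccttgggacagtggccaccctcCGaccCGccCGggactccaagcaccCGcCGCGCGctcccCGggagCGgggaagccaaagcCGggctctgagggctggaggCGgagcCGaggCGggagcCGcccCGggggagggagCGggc
Gin1: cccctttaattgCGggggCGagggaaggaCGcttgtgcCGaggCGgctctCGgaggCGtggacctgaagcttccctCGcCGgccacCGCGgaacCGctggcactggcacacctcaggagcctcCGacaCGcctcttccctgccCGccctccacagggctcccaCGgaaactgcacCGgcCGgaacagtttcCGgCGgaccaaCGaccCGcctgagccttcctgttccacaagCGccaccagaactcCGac
Prm1 had 0 CpG in this window, as did 7.87% of all 32851 promoter windows. Hdac4 held 23, Pam 28 and Gin1 24, against a median of 6 over all windows, and 13.3% of windows held 23 or more.

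Hdac4 was lower in carriers on both of its brighter probe sets. The brightest read 7.81, 7.98, 8.00, 8.06, 8.11, 8.15, 8.17 and 8.20 in the WT arrays and 7.47, 7.48, 7.49, 7.57, 7.59, 7.60, 7.67 and 7.74 in Hdac4HET. In R6/2 it read 7.54, 7.77, 7.81, 7.86, 7.94, 8.02, 8.06, 8.08 and 8.14, and in Dble::R6/2 7.32, 7.50, 7.52, 7.53, 7.54, 7.64, 7.68, 7.68 and 7.80. The 2 groups without the transgene were separate, while 4 double mutants lay at or above the R6/2 minimum, which came from the array with epidermal transcripts. The pooled log2 change was -0.40 ± 0.051 (SE, limma adjusted p = 2.75e-05), which left 75.6% of the non-carrier level.

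The second brightest Hdac4 probe set ranged from 7.54 to 8.13 in WT (median 7.88) and from 7.16 to 7.50 in Hdac4HET (median 7.35). It ranged from 7.67 to 7.99 in R6/2 (median 7.87) and from 7.01 to 7.56 in Dble::R6/2 (median 7.26). Carriers and non-carriers did not overlap on either background, and the pooled change of -0.56 ± 0.051 left 67.7% (adjusted p = 6.57e-09). The dimmest probe set was not called, at -0.21 (95% interval -0.35 to -0.08, adjusted p = 0.128), with -0.36 in Hdac4HET against WT and -0.08 in Dble::R6/2 against R6/2. Where these probe sets lie with respect to the deletion was not analysed here.

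Prm1, which encodes a protamine that packs DNA in sperm heads, was higher in every carrier than in every non-carrier of the same background on its 2 dimmer probe sets. On the middle one, WT arrays read 2.56, 2.57, 2.60, 2.64, 2.65, 2.70, 2.72 and 2.80, and Hdac4HET arrays 3.52, 3.58, 3.64, 3.84, 3.86, 3.98, 4.01 and 4.55. R6/2 arrays read 2.52, 2.54, 2.55, 2.57, 2.61, 2.64, 2.70, 2.72 and 2.87, and Dble::R6/2 arrays 3.73, 4.21, 4.26, 4.49, 4.50, 4.62, 4.68, 4.85 and 5.08. Non-carriers sat near the lowest values of the arrays (2.04), so the level there is close to the floor of the measurement. The pooled change was 1.56 ± 0.102 (adjusted p = 1.95e-12), and no fold is given against levels so close to the floor.

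On the dimmest Prm1 probe set the rise was 1.53 ± 0.111 (adjusted p = 2.09e-11), and it was larger with the transgene (2.01) than without it (0.99). That difference of 1.03 was the single call of 45037 for the interaction of allele and transgene (0.00222%, adjusted p = 9.08e-04, with 4444 probe sets at an unadjusted p under 0.05). The brightest Prm1 probe set rose by 0.28 (adjusted p = 4.07e-04), with 1 Hdac4HET and 1 Dble::R6/2 array inside the range of their non-carriers. Other genes of sperm chromatin read close to 0 change: Prm2 at -0.08 (95% interval -0.19 to 0.03), Prm3 at -0.01 (-0.12 to 0.09), Tnp2 at 0.02 (-0.07 to 0.11) and the brighter Tnp1 probe set at -0.01 (-0.11 to 0.10). None of them was called, and Prm1 was the only one of 15 spermatid genes that was. Whether the Prm1 probe sets read only the Prm1 transcript was not checked.

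**Figure D1:**
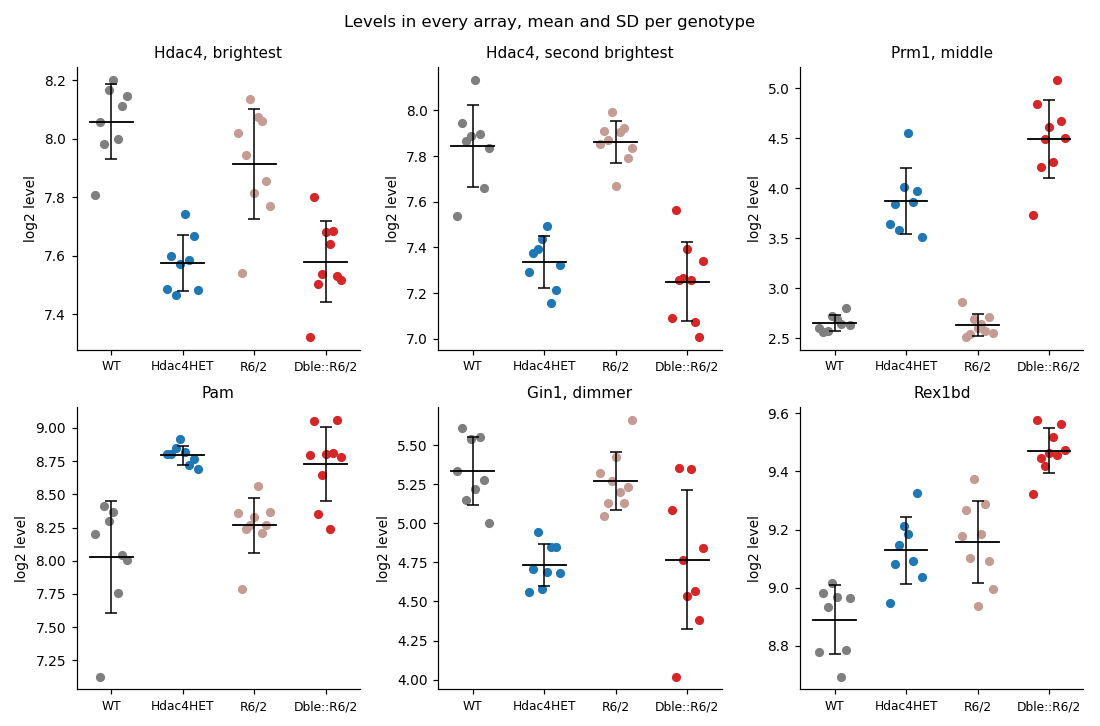
Log2 level of 6 probe sets in every array (points), with the mean and SD (lines and bars) of 8 WT, 8 Hdac4HET, 9 R6/2 and 9 Dble::R6/2 mice; dimmer, middle and the like name a probe set's rank by brightness within its gene. Carriers and non-carriers separated on both backgrounds for the second brightest Hdac4 probe set and for Prm1, and 2 of 9 Dble::R6/2 arrays lay inside the R6/2 range for Pam and 3 of 9 for Gin1.

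Across all probe sets, 94 of 45037 (0.209%) reached an adjusted p of 0.05 for the allele. Carriers were higher for 49 (0.109%) and lower for 45 (0.0999%). All 94 had the same sign on both backgrounds, and the 84 described above (0.187%) split into 45 higher and 39 lower. The 94 were chosen by the pooled fit on these same arrays, so this agreement follows largely from the choice. Changes were small, with a median size of 0.298 on the log2 scale. Only 27 exceeded 30% in either direction (16 higher and 11 lower), and 2 exceeded 2-fold, both of them Prm1 probe sets with non-carriers near the floor. Carriers and non-carriers were fully separate on both backgrounds for 3 probe sets (0.00666%), 2 of Prm1 and 1 of Hdac4. The other 10 calls missed p under 0.05 on 1 background, which was that of R6/2 for 9 of them and the one without the transgene for Erp44, singled out after its values were seen.

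These counts moved with the arrays and terms used. With Xist-defined sex added to the fit 15 probe sets were called, without the 4 arrays high in Prl 8, and without the 15 arrays whose sex label went against Xist 8. Without R6/2 replicate 2 the count was 168, of which 137 held in both backgrounds. Without R6/2 replicate 7, which was not among the arrays that stood apart, 389 were called. All 94 kept their direction in each of the first 3 settings, where their median size was 0.28, 0.3 and 0.253. In these settings 94, 94 and 89 of them stayed at an unadjusted p under 0.05. These settings refitted arrays that had chosen the 94, so the kept direction follows largely from the choice. In total 4 probe sets were called in each of 49 fits, which comprised the pooled fit, every fit that left out 1 array and the other probe-set alternatives on all probe sets: 2 of Hdac4 and 2 of Prm1. The brightest Prm1 probe set and Pam missed the threshold only without the 15 arrays with a conflicting sex label (adjusted p = 0.147 and 0.0578). Leaving out any single array, Rex1bd, Gin1, Armc9, Ptprz1, Klhdc1, Smc2os, Tnrc18 and Ermp1 also stayed called in 34 of 34 fits, whereas Sst did so in 12, ND5 and Calb1 in 9, Ppargc1a in 8 and Stk25 in 7.

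**Figure D2:**
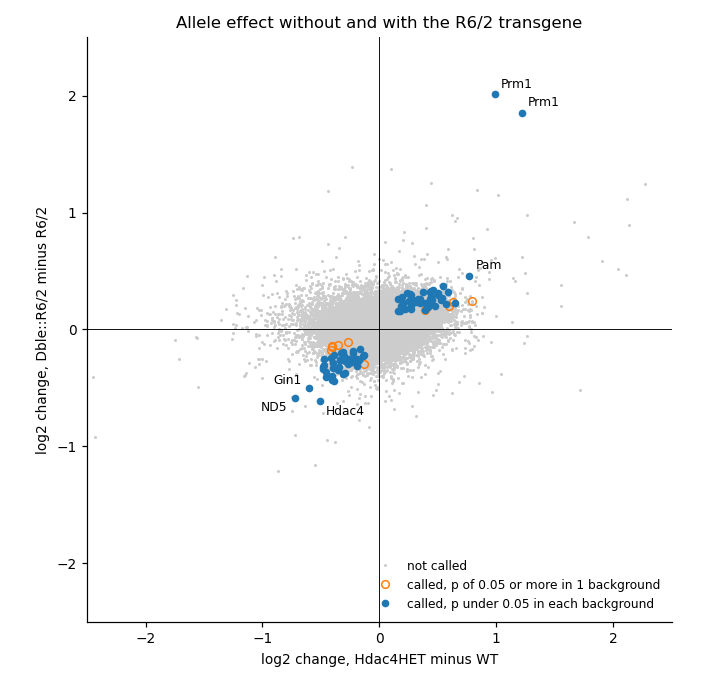
Log2 change for each probe set in Hdac4HET minus WT (x axis) and in Dble::R6/2 minus R6/2 (y axis), with called probe sets in colour and 4 probe sets outside the axes. Prm1 stands alone at the upper right, and the other calls form an upper and a lower cluster near the diagonal with sizes mostly under 0.6.

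Read from one background to the other, with no array in common, the effect carried over for few genes. Between Hdac4HET and WT 1760 probe sets were called (3.91%). In Dble::R6/2 against R6/2, 1041 of these (59.1%) had the same sign, where 56.3% of all probe sets did, and 87 (4.94%) had the same sign at an unadjusted p under 0.05, where 3.79% of all did. The 754 that were higher had a median change of 0.361 in Hdac4HET against WT and 0.0589 in Dble::R6/2 against R6/2, and the 1006 that were lower had medians of -0.432 and 0.00192. In the other direction, the 3 probe sets called between Dble::R6/2 and R6/2 (0.00666%), 2 of Prm1 and the second brightest of Hdac4, all had the same sign and p under 0.05 without the transgene. Among the 94 pooled calls the change was larger without the transgene for 69, at a median size of 0.379 against 0.257 with it.

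Genes close to Hdac4 on chromosome 1 were read against the 0.209% of all probe sets called. Within 10 Mb, 7 of 257 probe sets were called (2.72%), and these were 2 of Hdac4 itself and 1 each of Pam, Gin1, Armc9, Snorc and Stk25. Within 5 Mb the share was 2.44%, within 20 Mb 1.53%, and on the whole of chromosome 1 it was 0.512%. The 2 called probe sets of Hdac4 count in each of these shares. Within 5 Mb they were 2 of the 4 calls, beside Snorc and Stk25. Other readings showed no such surplus: within 10 Mb 14.4% of probe sets had an unadjusted p under 0.05 for the allele, beside 15.5% of all, and 3.89% were called between Hdac4HET and WT, beside 3.91% of all. No test of these shares was made.

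Pam, which encodes the enzyme that amidates the ends of neuropeptides, lies 5.90 Mb from Hdac4 and rose by 0.61 ± 0.093 (adjusted p = 9.11e-04). It read 7.13, 7.76, 8.00, 8.04, 8.20, 8.30, 8.37 and 8.41 in WT and 8.69, 8.72, 8.77, 8.80, 8.80, 8.82, 8.85 and 8.92 in Hdac4HET. In R6/2 it read 7.79, 8.21, 8.24, 8.27, 8.27, 8.33, 8.36, 8.36 and 8.56, and in Dble::R6/2 8.24, 8.35, 8.64, 8.78, 8.79, 8.81, 8.81, 9.05 and 9.06. All Hdac4HET arrays were above all WT arrays, and 7 of 9 Dble::R6/2 arrays were above all R6/2 arrays. The 2 lowest WT arrays were among the 4 high in Prl, and with those 4 left out the change was 0.49 (adjusted p = 0.0013). Without the 15 arrays with a conflicting sex label it was 0.67 and missed the threshold (adjusted p = 0.0578).

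Gin1, related to the integrases of gypsy retrotransposons, lies next to Pam at 5.72 Mb and fell by 0.55 on the log2 scale on its dimmer probe set (adjusted p = 0.00352). It read 4.999, 5.15, 5.22, 5.27, 5.34, 5.54, 5.55 and 5.61 in WT and 4.56, 4.58, 4.68, 4.69, 4.71, 4.85, 4.85 and 4.95 in Hdac4HET. In R6/2 it read 5.05, 5.13, 5.13, 5.20, 5.23, 5.27, 5.32, 5.43 and 5.66, and in Dble::R6/2 4.02, 4.38, 4.54, 4.57, 4.76, 4.84, 5.09, 5.35 and 5.35. The brighter Gin1 probe set differed by -0.02 (95% interval -0.31 to 0.26).

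Pam and Gin1 departed together in single double mutants. Dble::R6/2 replicates 3 and 6 had the 2 lowest Pam levels (8.35 and 8.24) and the 2 highest Gin1 levels (5.35 in both), inside the range of R6/2. Replicates 2 and 8 had the 2 highest Pam levels (9.05 and 9.06) and the 2 lowest Gin1 levels (4.02 and 4.38). In replicates 3 and 6 the second brightest Hdac4 probe set (7.26 in both) was still below every R6/2 array, and Prm1 (4.21 and 4.26 on its middle probe set) was still above every R6/2 array. The pattern was seen in the values first, and its cause was not tested.

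On the other side of Hdac4, Armc9, a gene of the primary cilium, lies 5.85 Mb away and rose by 0.39 on 1 of its 7 probe sets (adjusted p = 0.00713), by 0.57 without and by 0.22 with the transgene. Every Hdac4HET array (5.58 to 6.04) was above every WT array (5.08 to 5.44), and 4 of 9 Dble::R6/2 arrays were above every R6/2 array. Snorc, a proteoglycan of cartilage, rose by 0.24 (adjusted p = 0.0414) at 4.59 Mb. Stk25, a kinase of the Golgi, fell by 0.29 (adjusted p = 0.0465) at 1.58 Mb, by 0.41 without the transgene. With it the Stk25 difference was -0.18 and did not reach an unadjusted p of 0.05. R6/2 replicate 2 read 10.02 there, and the other R6/2 arrays 10.57 to 10.83.

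**Figure D3:**
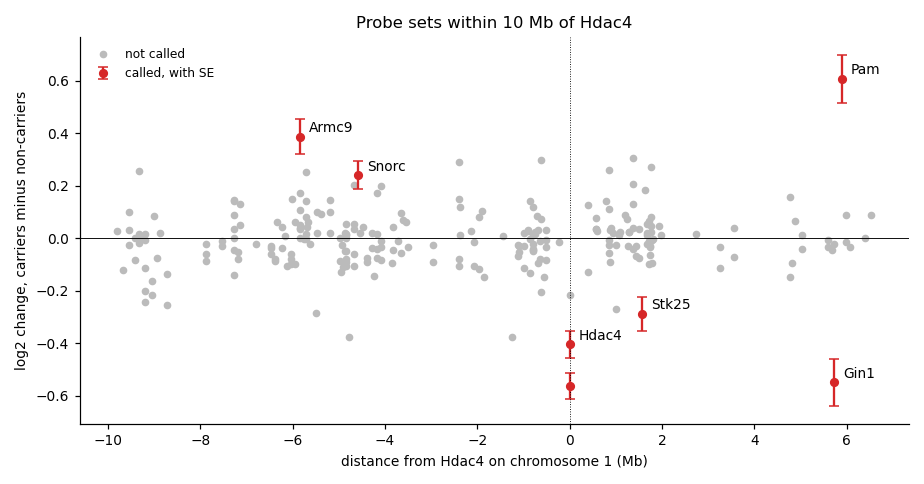
Pooled log2 change (carriers minus non-carriers) of the 257 probe sets within 10 Mb of Hdac4, by distance along chromosome 1 in Mb, with SE bars on the 7 that were called. The called neighbours lie on both sides of Hdac4 and move both ways, from Gin1 at -0.55 to Pam at 0.61.

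Rex1bd lies on another chromosome and had the smallest adjusted p after Hdac4 and Prm1. It was singled out after its values were seen. It read 8.69 to 9.02 in WT (median 8.95) and 8.95 to 9.33 in Hdac4HET (median 9.12), and 8.94 to 9.37 in R6/2 (median 9.18) and 9.32 to 9.58 in Dble::R6/2 (median 9.47). On each background 1 array of the carriers lay inside the range of the non-carriers, and the pooled rise was 0.28 ± 0.042 (adjusted p = 8.62e-04). The rise was still called with Xist-defined sex in the fit (0.27) and with the 4 Prl arrays left out (0.28). It missed the threshold without the 15 arrays with a conflicting sex label (0.27, adjusted p = 0.274), without the transgene covariate (adjusted p = 0.125) and in the methods' t-test (adjusted p = 0.138).

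Further rises included 2 elongases of long-chain fatty acids, Elovl6 (0.39, adjusted p = 0.041) and Elovl7 (0.38, adjusted p = 0.0305), and Ppargc1a (0.36, adjusted p = 0.0447), the coactivator of mitochondrial biogenesis. Ppargc1a read 8.29 to 8.84 in WT (median 8.52) and 8.79 to 9.16 in Hdac4HET (median 8.95), and 8.18 to 9.19 in R6/2 (median 8.51) and 8.35 to 9.49 in Dble::R6/2 (median 8.84). Hdac4HET was thus nearly separate from WT, whereas all but 1 Dble::R6/2 array fell within the range of R6/2. Cacna1a, the pore of P/Q-type calcium channels (0.34), Acvr2b, an activin receptor (0.34), Midn, which hands nuclear proteins to the proteasome (0.42), Myo9b, an unconventional myosin (0.45), Lims1, an adaptor of focal adhesions (0.38), Fam13c (0.45), Tnrc18 (0.39) and Ermp1, a peptidase of the endoplasmic reticulum (0.33), completed the 15 largest rises that held on both backgrounds among probe sets with 1 gene symbol. Among these 11 genes, Tnrc18 alone stayed called once Xist-defined sex was in the fit (0.38, adjusted p = 0.0421).

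Among the falls, ND5, a complex I subunit encoded in mitochondrial DNA, had the largest fitted change at -0.65 ± 0.147 (adjusted p = 0.0465). It read 12.40 to 13.47 in WT (median 13.18) and 12.04 to 12.90 in Hdac4HET (median 12.48), and 11.99 to 13.11 in R6/2 (median 12.71) and 10.67 to 12.80 in Dble::R6/2 (median 12.22), so that groups overlapped on both backgrounds. Ptprz1, a receptor phosphatase of astrocytes and glial precursors, fell by 0.41 (adjusted p = 0.0085) and was 0.84 lower with the transgene than without it. It read 9.21 to 9.64 in WT (median 9.46) and 8.72 to 9.22 in Hdac4HET (median 9.01), and 8.13 to 8.76 in R6/2 (median 8.58) and 7.64 to 8.65 in Dble::R6/2 (median 8.24). With Xist-defined sex in the fit it stayed called (-0.36, adjusted p = 0.018), as did the kelch-repeat gene Klhdc1 (-0.37, adjusted p = 0.042).

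Smo, the signal transducer of the Hedgehog pathway, fell by 0.42 (adjusted p = 0.027), with all 8 Hdac4HET arrays below the lowest WT array and 2 of 9 Dble::R6/2 arrays below the lowest R6/2 array. The RNA-processing gene Hnrnpc (-0.40), the nucleoporin gene Nupl2 (-0.39) and Mthfd2l of mitochondrial folate metabolism (-0.36) were also lower on their called probe sets. So were the postsynaptic scaffold gene Dlgap1 (-0.36), Rnls (-0.35), the caspase-8 inhibitor gene Cflar (-0.34) and the cytochrome P450 gene Cyp20a1 (-0.34). Smc2os, transcribed opposite to Smc2, differed by -0.41 (adjusted p = 0.0186), and whether its probes read that strand was not checked.

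**Figure D4:**
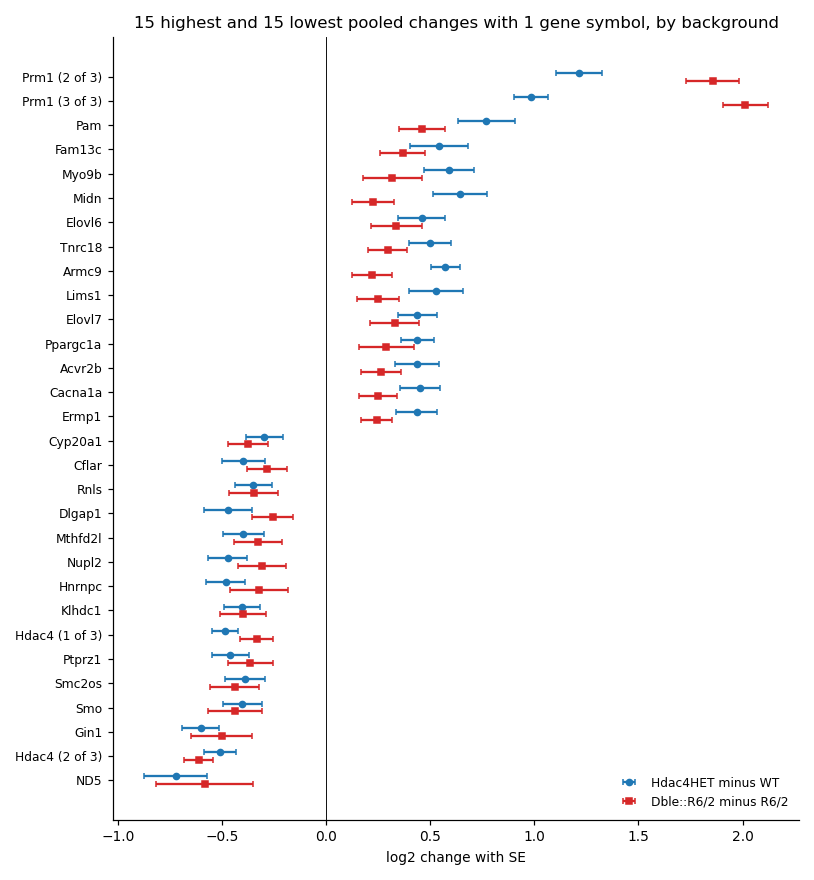
Log2 change with SE in Hdac4HET minus WT (circles) and Dble::R6/2 minus R6/2 (squares) for the 15 highest and 15 lowest pooled changes that held on both backgrounds, among probe sets with 1 gene symbol. The change without the transgene is the larger of the pair for all but both Prm1 probe sets, the second brightest of Hdac4, Smo, Smc2os and Cyp20a1, as for Armc9 at 0.57 and 0.22.

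Probe sets of one gene often differed. Of the 72 called genes, 53 had several probe sets, and 3 had more than 1 called. Their 119 other probe sets had the sign of the call in 76 cases, at an unadjusted p under 0.05 in 26, and 8 moved the opposite way at that level. The brightest probe sets of Fam13c (-0.15) and Lims1 (-0.28) leaned against the called ones, and Dlgap1 had another at 0.21. The brightest probe set was not called for Hnrnpc (-0.05), Nupl2 (-0.07), Mthfd2l (0.02), Cflar (0.01) and Smo (-0.10). The same held for Elovl6 (-0.002), Ermp1 (-0.03), Cacna1a (0.03), Myo9b (0.10) and Dlgap1 (0.06). Those of Elovl7 (0.41), Ptprz1 (-0.27) and Tnrc18 (0.20) were not called but had the sign of the call. Acvr2b and Cyp20a1 were called on their brightest. For Ppargc1a 2 further probe sets read 0.30 and 0.25, and the other 2 read 0.08 and 0.02. Taking the brightest probe set of each gene, 42 of 18193 genes were called (0.231%).

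Beyond Hdac4, no histone deacetylase gene was called, on any probe set, and none of their brightest probe sets reached an unadjusted p of 0.05 in limma. Among class IIa genes, Hdac5 differed by 0.01 (95% interval -0.12 to 0.15), Hdac7 by 0.10 (-0.00 to 0.19) and Hdac9 by 0.04 (-0.06 to 0.15) on their brightest probe sets. Hdac3, the partner of HDAC4, differed by -0.01 (-0.07 to 0.05), Hdac1 by -0.09 (-0.23 to 0.06), Hdac2 by -0.05 (-0.14 to 0.03), Hdac6 by 0.03 (-0.04 to 0.10), Hdac8 by 0.04 (-0.14 to 0.23), Hdac10 by 0.03 (-0.07 to 0.12) and Hdac11 by -0.11 (-0.23 to 0.01). Of 27 partners and kinases of HDAC4, limma called 0, and at an unadjusted p under 0.05 there were 2 higher and 4 lower. The endogenous Htt gene was not called, at 0.14 (0.01 to 0.27, adjusted p = 0.298). Bdnf was not called on either probe set, at 0.05 (-0.12 to 0.22) on the brighter and -0.08 (-0.39 to 0.22) on the dimmer.

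On the brightest probe set of each gene, the 26 MEF2 factors and muscle-type MEF2 targets held 0 limma calls (Ppargc1a, a member, was called on a dimmer one) and, at an unadjusted p under 0.05, 3 higher and 1 lower, with a median change of 0.037 beside -0.00788 over all genes. Mef2a, Mef2c and Mef2d differed by -0.09 (95% interval -0.18 to -0.00), -0.07 (-0.16 to 0.03) and 0.03 (-0.06 to 0.13) on their brightest probe sets, and Mef2b by -0.03 (-0.15 to 0.09). A match to the MEF2 consensus on either strand of the 250 bases before the start was found for 2 of the 60 called genes with a window, Lims1 and Nfasc (3.33%), and for 3.42% of all 27025 genes.

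Immediate early genes, which report neuronal activity, held 0 limma calls among 30, with 7 higher and 0 lower at an unadjusted p under 0.05 (23.3%, beside 16.5% of all genes). Their median change was 0.149, from 0.275 in Hdac4HET against WT to -0.00847 in Dble::R6/2 against R6/2. Nptx2, a synaptic pentraxin, was 0.83 higher in Hdac4HET than in WT and differed by -0.07 between Dble::R6/2 and R6/2, and Egr1 by 0.42 and -0.01. The difference of the list between backgrounds was not tested.

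GABAergic genes held 2 calls among 23, where 0.231% of all genes were called, and at an unadjusted p under 0.05 had 3 higher and 9 lower (52.2%, beside 16.5% of all genes). Both calls were lower: the neuropeptide gene Sst and Calb1, which encodes a calcium buffer and was also the 1 call among 20 cortical layer genes. Sst read 11.07 to 11.45 in WT (median 11.21) and 10.80 to 11.29 in Hdac4HET (median 10.97), and 9.67 to 10.23 in R6/2 (median 9.72) and 9.33 to 9.83 in Dble::R6/2 (median 9.61). On each background 6 carriers lay below every non-carrier, and the pooled change of -0.26 ± 0.057 (adjusted p = 0.043) compares with -1.39 for the transgene. In bulk cortex, fewer cells of a type and less RNA per cell cannot be told apart. Calb1 differed by -0.18 (adjusted p = 0.0484), but was 1 of the 10 calls that did not hold on both backgrounds, at -0.27 without and -0.11 with the transgene. Neither was called once Xist-defined sex was in the fit, nor with the Prl arrays left out. Npy (-0.23, adjusted p = 0.126), Gad2 (-0.17, 0.096) and the receptor subunit gene Gabra2 (-0.40, 0.0755) leaned lower without passing, Pvalb (0.20, 0.164) and Gabrd (0.20, 0.128) leaned higher, and the list's median was -0.045.

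The other neuronal and metabolic lists held 0 limma calls. Their medians were -0.00615 for 29 glutamatergic synapse genes, -0.019 for 28 synaptic vesicle genes, 0.0114 for 19 cholesterol synthesis genes, -0.00948 for 30 chaperone genes and 0.0161 for 44 oxidative phosphorylation genes. At an unadjusted p under 0.05 the glutamatergic list had 2 higher and 4 lower, the vesicle list 4 and 6, cholesterol synthesis 4 and 1, chaperones 6 and 1 and oxidative phosphorylation 8 and 4. ND5, which was called, was not a member of the oxidative phosphorylation list. Over all genes 1330 of 18193 were higher and 1663 lower at an unadjusted p under 0.05. The 11 genes that the study followed by qPCR held 0 calls and 0 at an unadjusted p under 0.05, and its 4 reference genes held 0 and 1.

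The allele and the transgene effects were read on the same arrays, so their values are given side by side only. Smc2os (-0.41 for the allele, 0.46 for the transgene), Myo9b (0.45, -0.43), Armc9 (0.39, -0.43) and Elovl7 (0.38, -0.34) had opposite signs. Klhdc1 (-0.40, -0.34), Lims1 (0.38, 0.58), Tnrc18 (0.39, 0.36) and Rex1bd (0.28, 0.31) had the same sign, as had Ptprz1 and Sst above. Hdac4 itself differed by -0.07 with the transgene on its brightest probe set, and Pam by 0.08 and Gin1 by -0.02.

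Apart from Prm1 in the spermatid list, markers of glia and of other tissues held 0 calls. All 12 choroid plexus markers were higher in carriers, at a median of 0.298 and up to 0.79 for Ttr (adjusted p = 0.397), and 16.7% had an unadjusted p under 0.05, beside 16.5% of all genes. The list had list means of 4.12 to 4.59 in WT, 4.29 to 4.89 in Hdac4HET, 4.51 to 5.20 in R6/2 and 4.15 to 6.63 in Dble::R6/2. Of 10 pituitary markers 4 were higher, the median was -0.0346 and Prl differed by -1.21 (adjusted p = 0.366), with list means up to 6.92 in WT, 6.07 in Hdac4HET, 4.75 in R6/2 and 4.90 in Dble::R6/2. The medians of the other lists were -0.0229 for astrocytes, -0.0791 for microglia, 0.00862 for oligodendrocytes, 0.0204 for endothelial and mural cells, 0.0348 for red blood cells and -0.0701 for epidermis. At an unadjusted p under 0.05 in limma, 2 choroid plexus, 1 pituitary, 2 astrocyte and 4 endothelial or mural markers were higher, and 3 astrocyte, 5 microglia, 1 oligodendrocyte and 1 endothelial or mural markers were lower. Their part in the changes above was not tested beyond leaving out the arrays already named.

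**Figure D5:**
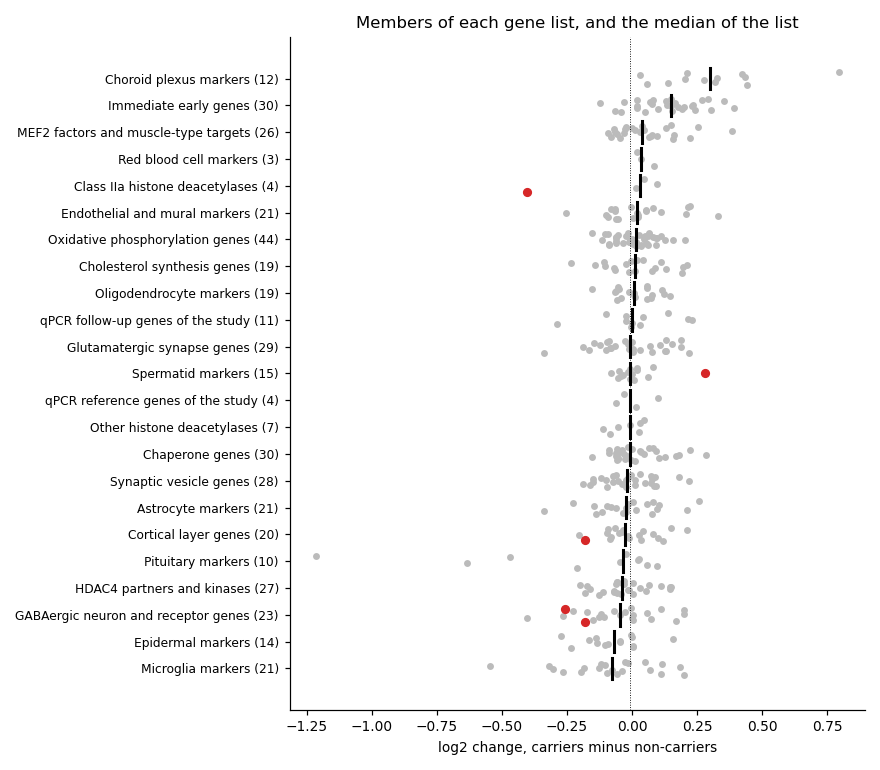
Pooled log2 change (carriers minus non-carriers) of every measured gene (points) in 23 gene lists, with the number of genes in brackets, the list's median (black bar), the median of all genes (dotted line) and called genes in red. Red points appear for Hdac4, Prm1, Sst and Calb1, and the choroid plexus list lies farthest to the right, with no called gene.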

How the data were processed

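Cortex RNA of single mice was hybridised by the authors to Affymetrix mouse whole-genome arrays. The authors deposited log2 levels per probe set. Background correction and normalization: not given in the sources used here. Array medians lay between 5.44 and 5.52, and values were used as deposited. Symbols came from the platform annotation, updated through RefSeq (GRCm38.p6): 34945 probe sets had 1 symbol, 932 several and 9160 none, and the last 2 kinds were not named. The allele effect was fitted on all 34 arrays in limma (version 3.58.1, under R 4.3.3, with lmFit followed by eBayes without a trend) with the transgene as covariate, adjusted by Benjamini-Hochberg over 45037 probe sets and called at 0.05. Each background was fitted on its own arrays, and the interaction on 4 genotype means. The fit was tested on simulated data. Alternatives changed the normalization, filter, variance model, sex or replicate terms and the arrays used.

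Named were the 15 highest and 15 lowest changes holding on both backgrounds among probe sets with 1 symbol, the Hdac and Mef2 genes, Htt, Bdnf, each list's called members (at most 3) and called genes within 10 Mb of Hdac4. Members, lists and this rule were chosen with earlier results of these data known. Prm1 relatives and Rex1bd were added after their values were seen. A gene's brightest probe set stands for it in a list. Nothing in the labels ties replicate numbers to litters, and p-values measure the spread between these mice. The number of arrays limits precision: the median 95% interval spanned 0.12 either side. Figures were drawn with matplotlib 3.10.9.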

Additional observations from a re-analysis of the deposited data

Results flagged for a closer look

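In total 144 groups of 8 or 9 arrays were checked for 1 value far from the rest, over the 36 called probe sets named in the text, and 9 (6.25%) stood out, where chance gives about 1 in 20. Low arrays were Pam in R6/2 replicate 2 (7.787, others 8.21 to 8.56), Stk25 in R6/2 replicate 2 (10.02, others 10.57 to 10.83), Myo9b in WT replicate 3 (5.713, others 6.38 to 6.72), Snorc in WT replicate 1 (4.353, others 4.59 to 4.80) and ND5 in WT replicate 8 (12.4, others 13.07 to 13.47). Elovl6 in Hdac4HET replicate 4 (7.607, others 7.99 to 8.19), Smo in Hdac4HET replicate 6 (4.959, others 5.39 to 5.58) and Smc2os in Dble::R6/2 replicate 2 (4.454, others 5.12 to 5.45) were also low. Calb1 in Hdac4HET replicate 4 was high (11.36, others 10.95 to 11.14). R6/2 replicate 2 is the array with epidermal transcripts.

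The effect of the allele on the dimmest Prm1 probe set was larger with the R6/2 transgene than without it, by 1.027 on the log2 scale, in a test of the difference itself.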

How the results depend on the processing

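Counts of calls depended strongly on the setting, and the cause of these shifts was not tested. No called probe set named in the text changed sign in any alternative. Each alternative refitted the arrays that chose these probe sets, or part of them, so the kept sign follows largely from the choice. Against 94 calls (49 higher, 45 lower) of which 84 held on both backgrounds, quantile normalization gave 137 calls with 46 higher and 91 lower and 126 on both, the brighter probe sets gave 274 (149 higher, 125 lower, 179 on both, 0 for the interaction), array weights 461 (267, 194, 314), sex from Xist 15 (9, 6, 15), the mean of both backgrounds 161 (87, 74, 107), no transgene covariate 10 (7, 3, 10), the first residual principal component 802 (541, 261, 507, with 203 for the interaction) and the methods' t-test 11 (8, 3, 11). In the same order, means over all probe sets of a gene gave 38 (17, 21, 34), the arrays without the 4 high in Prl 8 (5, 3, 8), and those without R6/2 replicate 2 168 (95, 73, 137, with 2 for the interaction). Settings chosen after seeing the data were R6/2 replicate 2 and the 4 Prl arrays both left out, at 10 (6, 4, 10), sex from Xist with the Prl arrays left out, at 9 (5, 4, 9), and the 15 arrays with a conflicting sex label left out, at 8 (4, 4, 8). An unadjusted p under 0.01 on each background left 43, and the same direction alone 94.

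Leaving out each array in turn gave 18 calls (without Hdac4HET replicate 6) to 389 (without R6/2 replicate 7), 11 to 213 higher, 7 to 176 lower, 16 to 291 on both backgrounds, 1 to 10 for the interaction, and an Hdac4 change of -0.43 to -0.39. The total moved by over 1.5 times for every array but Dble::R6/2 replicates 3, 5, 7 and 9 and Hdac4HET replicates 3 and 4. With the replicate number as a block (replicate block), 77 probe sets were called, 64 of them on both backgrounds, and 3 for the interaction. The 17 same-numbered pairs of arrays correlated at -0.141 to 0.45, and 3 arrays correlated best with their own number. Whether same-numbered arrays shared more than the number was not tested. The number of arrays and, for Prm1, levels near the floor limit what can be seen.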
